A study of Mus musculus with 4 samples.

Results

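Plasma cells are the antibody-secreting end stage of the B lineage, and some of them persist in the bone marrow. The genes described here are 10 genes of that programme, taken by their symbols: the antibody constant genes Igkc, Igha and Ighg1, the joining chain gene Jchain, the regulators Prdm1 and Xbp1, the surface receptors Sdc1 and Tnfrsf17, and the endoplasmic reticulum (ER) factors Mzb1 and Derl3. All 10 were found among the 16673 genes in the table, and all 10 passed the filter on low values, a mean of at least 10 normalized counts over the 4 libraries. RNA was sequenced from lineage-negative (Lin–) bone marrow cells of 2-month-old mice, with 2 mice per group and a library from each. The cKO mice had the genotype Tie2+/cre; Tet3F/F, and the control mice were Tet3F/F without Cre, so floxed Tet3 was common to both groups. Tie2 is active in endothelial cells and in early blood cells, so the Cre model is not restricted to the B lineage, and TET3 oxidises 5-methylcytosine in DNA. The sources used here do not list which lineage antibodies were used, nor the strain or the sex of the mice.

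In a plasma cell, PRDM1 (BLIMP-1) shuts down genes of the B cell stage. XBP1, made active by a splicing step under ER stress, enlarges the secretory apparatus. Heavy and light chains are paired in the ER, and the J chain joins IgA dimers and IgM pentamers. In bulk RNA, more plasma cells and more RNA per plasma cell cannot be told apart.

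The libraries differed in ways that bear on every value below. Reads counted to genes came to 28845037 and 30020188 in the cKO libraries (replicates 1 and 2) and 39199593 and 46673855 in the control libraries. Xist had 87442 and 48951 normalized counts in the cKO libraries and 5.54 and 9.57 in the control libraries, and Ddx3y, a Y-linked gene, had 0 and 0 reads in the cKO libraries against 3421 and 4604 reads in the control libraries, so genotype and sex cannot be told apart. Tet3 itself had 6400 and 5084 normalized counts in the cKO libraries and 5056 and 6593 in the control libraries. Reads from exons that Cre leaves in place count toward Tet3, so its level does not check the genotype labels. Control replicate 2 stood apart, with 8.21% of its reads from mitochondrially encoded genes, against 1.27% and 0.993% in the cKO libraries and 1.09% in control replicate 1. All 10 plasma cell genes had their lowest value in control replicate 2, and the fold change of each is therefore also given without it. Kit, a stem and progenitor marker, had 14050.5 and 12478 normalized counts in the cKO libraries and 10915 and 11537 in the control libraries. The 12 stem and progenitor markers listed, Kit among them, were less even in sum. They summed to 297751 and 312801 in the cKO libraries and 387250 and 125149 in the control libraries. Of the 12, 4 were lowest and 4 highest in control replicate 2. Markers of mature erythroid, myeloid, B, T and NK cells were present too, so these values do not show how far lineage-positive cells were removed.

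None of the 10 genes passed the test between cKO and control. The test was limma on log2(normalized count + 1) over 16598 genes, called at a Benjamini-Hochberg adjusted p under 0.05, and 0.0723% of all genes passed it. edgeR and DESeq2 on the recovered reads also called 0 of the 10, where they called 0.0723% and 0.645% of all genes. At an unadjusted p under 0.05, 4 of them (Igkc, Igha, Jchain and Sdc1) were higher in cKO, against 3.49% of all genes. That count was 0 without a trend in the variance and 3 with the replicate number as a block, and it changed with each library left out. The share of all genes at this p was taken only in the main fit, so the other counts have no background beside them. In 7 of the 10, both cKO libraries lay above both control libraries, which was so for 19.2% of all genes. Without control replicate 2, 7 of the 10 had both cKO libraries above the control library kept, and so did 34.6% of all genes. The count was 10 without control replicate 1 (40.9% of all genes), 7 without cKO replicate 1 (28.6%) and 9 without cKO replicate 2 (33.6%). The median log2 fold change of the 10 was 0.89, against 0.01 over all genes tested, and leaving out a control library gave 0.48 (replicate 2 out) or 1.41 (replicate 1 out). The plot of normalized counts by library shows these values.

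**Figure D1:**
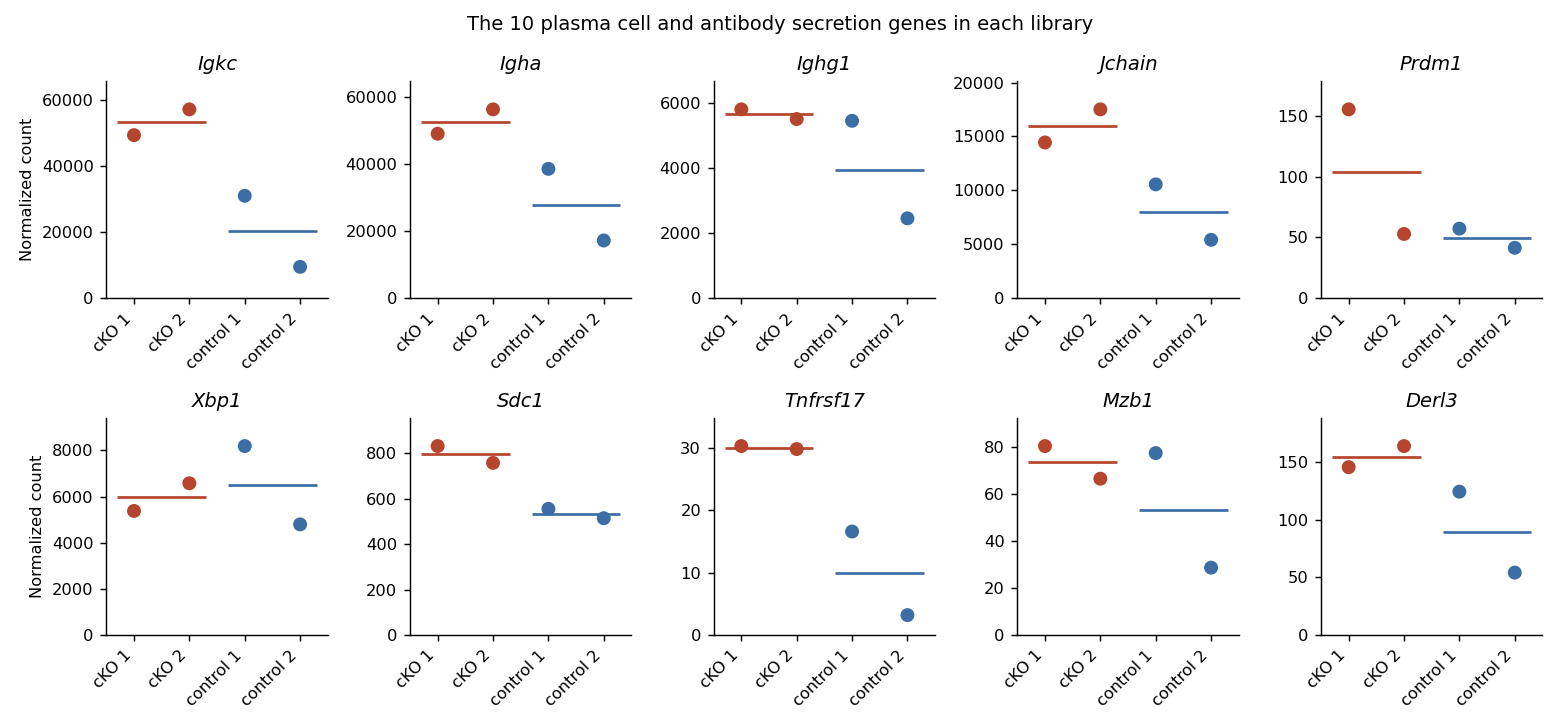
Normalized count of each gene (linear axis from 0) in the 2 cKO and 2 control libraries. Each point is a library and each line is the group mean. Control replicate 2 is the lowest point in all 10 panels, and both cKO points lie above both control points for every gene but Prdm1, Xbp1 and Mzb1.

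The 3 constant genes and Jchain encode the secreted chains. Igkc encodes the constant part of the kappa light chain. It had 49421 and 57229.8 normalized counts in the cKO libraries and 31050.3 and 9509.7 in the control libraries, and the groups did not overlap. Its log2 fold change was 1.63 (SE 0.49, 95% interval 0.48 to 2.78, limma adjusted p = 0.76). Igha encodes the constant part of the IgA heavy chain, the class of mucosal antibody. It had 49058 and 56323 normalized counts in the cKO libraries and 38583 and 17225 in the control libraries, again without overlap. Its log2 fold change was 1.03 (SE 0.37, 95% interval 0.16 to 1.90, limma adjusted p = 0.76). Jchain had 14444 and 17512 normalized counts in the cKO libraries and 10558 and 5417 in the control libraries. The lower cKO library of Jchain was above the higher control library, and its log2 fold change was 1.07 (SE 0.32, 95% interval 0.33 to 1.81, limma adjusted p = 0.76). Ighg1, the constant gene of IgG1, was the least separated of the 4. It had 5794 and 5497 normalized counts in the cKO libraries, close to the 5443 of control replicate 1, while control replicate 2 had 2451. Its log2 fold change was 0.63 (SE 0.35, 95% interval -0.18 to 1.43, limma adjusted p = 0.76).

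The size of these differences varied with the control library kept. Without control replicate 2, the log2 fold changes were 0.78 for Igkc, 0.59 for Jchain, 0.45 for Igha and 0.05 for Ighg1, and none passed. Without control replicate 1, when control replicate 2 is the only control left and is assumed to vary like the cKO group, all 4 antibody genes passed and none of the other 6 did. The limma adjusted p was then 0.0039 for Igkc, 0.0155 for Jchain and 0.023 for Igha and Ighg1, with log2 fold changes of 2.48 for Igkc, 1.55 for Jchain, 1.61 for Igha and 1.20 for Ighg1. In that fit 1.4% of all genes passed as higher in cKO. Together the 4 antibody genes took 0.353% and 0.396% of the reads in the cKO libraries and 0.237% and 0.0930% in the control libraries. The Wilson 95% interval of the last value is 0.0921% to 0.0938%, and it covers counting error only.

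**Figure D2:**
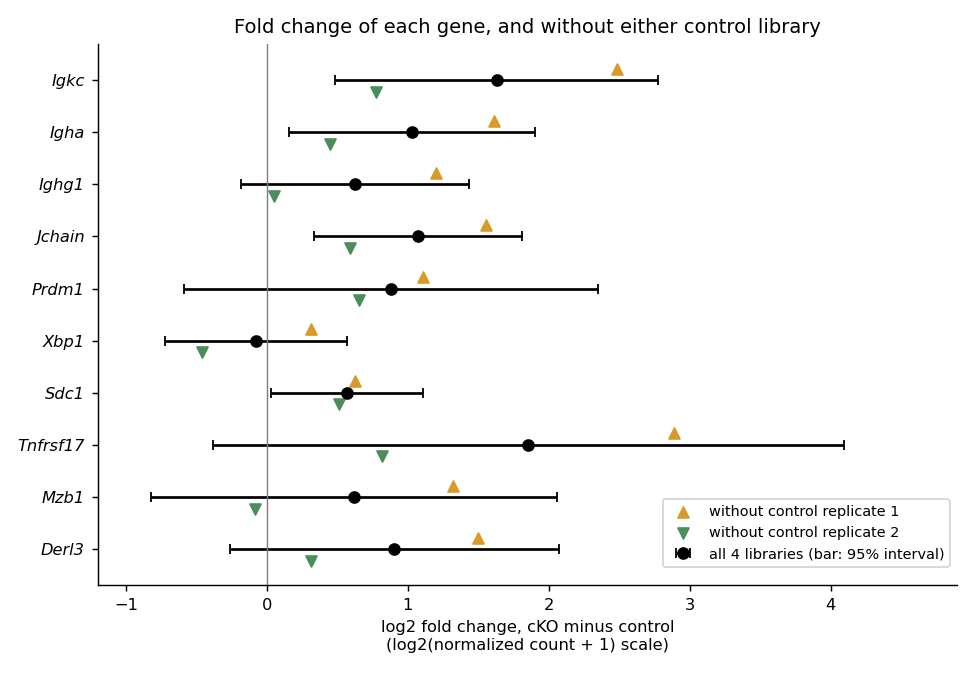
Log2 fold change, cKO minus control, of each gene on the log2(normalized count + 1) scale. Black points with bars are the limma estimate over 4 libraries with its 95% interval, and triangles are the estimates without a control library. Sdc1 moved least between the fits (0.51 and 0.63), and Xbp1 and Mzb1 lay on both sides of 0.

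In both regulators the groups overlapped. Prdm1 had 155 and 52.8 normalized counts in the cKO libraries and 57.2 and 41.5 in the control libraries. Only cKO replicate 1 was high, cKO replicate 2 lay between the control libraries, and the log2 fold change was 0.88 (SE 0.63, 95% interval -0.59 to 2.35, limma adjusted p = 0.77). Without cKO replicate 1 it was 0.11, and without control replicate 2 it was 0.66. Xbp1 had 5375 and 6575 normalized counts in the cKO libraries and 8188 and 4793 in the control libraries, so both cKO libraries lay between the 2 control libraries. Its log2 fold change was -0.08 (SE 0.28, 95% interval -0.72 to 0.57, limma adjusted p = 0.96). It became -0.46 when control replicate 2 was left out and 0.31 when control replicate 1 was. Xbp1 is not restricted to plasma cells, and a count per gene does not separate its spliced from its unspliced form. Relative to Jchain, Xbp1 had ratios of normalized counts of 0.372 and 0.375 in the cKO libraries and 0.775 and 0.885 in the control libraries. This ratio separated the groups with either control library, but Jchain itself was higher in both cKO libraries. A gene whose own values overlap can therefore separate once divided by Jchain, and the share of all genes that do was not taken. With 2 libraries a group the smallest p of an exact permutation test is 0.33. The Igkc ratio to Jchain also separated, at 3.42 and 3.27 (cKO) and 2.94 and 1.76 (control). So did that of Ighg1, at 0.401 and 0.314 (cKO) and 0.515 and 0.452 (control). The ratios of Sdc1 and Mzb1 to Jchain overlapped between the groups. Sdc1 was at 5.76% and 4.33% of Jchain in the cKO libraries and 5.26% and 9.50% in the control libraries. Mzb1 was at 0.558% and 0.381% in the cKO libraries and 0.735% and 0.530% in the control libraries. The 4 secreted chain genes summed to 118716 and 136562 normalized counts in the cKO libraries and 85635 and 34603 in the control libraries, without overlap. The other 6 genes, mostly Xbp1, summed to 6619 and 7647 in the cKO libraries and 9019 and 5435 in the control libraries, with overlap.

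The 2 surface receptors were higher in both cKO libraries than in both control libraries. Sdc1 encodes syndecan-1 (CD138), the proteoglycan used to sort plasma cells. It had 832 and 758 normalized counts in the cKO libraries and 556 and 514 in the control libraries. Its control libraries were close to each other, unlike those of the antibody chains, and its log2 fold change was 0.57 (SE 0.23, 95% interval 0.03 to 1.11, limma adjusted p = 0.76). With each library left out in turn it lay between 0.50 and 0.64, and it was 0.51 without control replicate 2. Tnfrsf17 encodes BCMA, the receptor through which APRIL sustains long-lived plasma cells. It rested on few reads, with 26 and 26 reads in the cKO libraries and 18 and 4 reads in the control libraries, or 30.4 and 29.9 against 16.6 and 3.19 normalized counts. Its log2 fold change was 1.86 (SE 0.96, 95% interval -0.38 to 4.10, limma adjusted p = 0.76) and 0.82 without control replicate 2.

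The ER factors Mzb1 and Derl3 also had few reads, at most 84 for Mzb1 and 143 for Derl3. MZB1 is an ER chaperone that helps IgM and IgA assembly and secretion, and its gene had 80.5 and 66.6 normalized counts in the cKO libraries and 77.6 and 28.7 in the control libraries. The groups overlapped, and the fitted log2 difference was 0.62 (SE 0.62, 95% interval -0.82 to 2.06, limma adjusted p = 0.81). It was -0.08 without control replicate 2. Derlin-3 takes part in the export of misfolded proteins from the ER for degradation. Derl3 had 146 and 164 normalized counts in the cKO libraries and 125 and 54.2 in the control libraries, without overlap, and its log2 fold change was 0.90 (SE 0.50, 95% interval -0.26 to 2.07, limma adjusted p = 0.76) and 0.31 without control replicate 2. Derl3 kept close to Jchain in every library: it was 1.01% and 0.938% of the Jchain normalized count in the cKO libraries and 1.18% and 1.001% in the control libraries.

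Promoters were compared because Derl3 and Jchain varied together. RefSeq promoters of 6 of the 10 genes were used (build GRCm38.p6, another build than that of the reads). The 250 bases before the gene start were searched on both strands. The promoters of Igkc, Igha, Ighg1 and Mzb1 were not searched, so Derl3 was the only ER factor compared. The 7 strings were the ER stress response element (CCAAT, any 9 bases, CCACG), its second form (ATTGG, any 1 base, CCACG), TGACGTGG and CCACGT as known ER stress motifs, AGNGAAAG for BLIMP-1, the octamer ATGCAAAT, and GGAA, any 2 bases, GAAA for the composite site of ETS and IRF factors. The promoter of Derl3 alone among the 6 held any of them. The ER stress element, on the minus strand, begins 156 bases before the gene start and was found in 0.114% of 32536 promoters, and CCACGT begins 169 bases before the start and was found in 6.97%. Every TGACGTGG holds CCACGT on its other strand, and the 2 matches in Derl3 do not overlap. The sequences of Derl3 (chr10:75893148-75893397, plus strand) and Jchain (chr5:88527898-88528147, minus strand) are shown 5′ to 3′, with the matches in capitals, as a pair whose patterns over the libraries were close, at very different levels, and whose promoters differ in these letters.
Derl3: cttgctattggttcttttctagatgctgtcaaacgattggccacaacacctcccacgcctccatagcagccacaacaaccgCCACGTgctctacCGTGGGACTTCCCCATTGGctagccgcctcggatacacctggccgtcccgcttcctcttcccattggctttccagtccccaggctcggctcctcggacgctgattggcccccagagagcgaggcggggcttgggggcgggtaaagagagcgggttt
Jchain: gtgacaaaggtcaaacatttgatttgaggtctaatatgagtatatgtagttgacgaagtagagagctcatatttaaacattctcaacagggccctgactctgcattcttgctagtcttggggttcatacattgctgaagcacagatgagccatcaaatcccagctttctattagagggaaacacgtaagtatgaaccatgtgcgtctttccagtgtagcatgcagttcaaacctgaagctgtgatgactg
The matches are a description of the letters and were not tested for binding.

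The make-up of the heavy chain reads was compared next, since Igha and Ighg1 lie in a row of 8 constant genes on chromosome 12. The order along the locus is Ighm, Ighd, Ighg3, Ighg1, Ighg2b, Ighg2c, Ighe and Igha. Igha took 55.7% and 55.7% of the heavy chain constant reads in the cKO libraries and 56.1% and 57.5% in the control libraries, a nearly equal share at totals of 75511 and 88023 such reads in the cKO libraries and 74525 and 37571 in the control libraries. Ighg1 took 6.57% and 5.44% in the cKO libraries and 7.91% and 8.18% in the control libraries. Ighg2c took 14.2% and 12.4% in the cKO libraries and 8.13% and 3.61% in the control libraries. Ighm, the class of unswitched cells, took 12.1% and 10.2% in the cKO libraries and 16.3% and 25.4% in the control libraries. Of the 8 genes, the shares of Igha, Ighg1, Ighg2c and Ighm each separated the groups without overlap. That of Igha did so by less than 1 percentage point between the nearest libraries. The shares of Ighg2b, Ighg3, Ighd and Ighe overlapped, with Ighg2b at 10.5% and 15.7% in the cKO libraries and 10.8% and 4.30% in the control libraries. Shares within a library do not vary independently, because a rise in one lowers the others. The Wilson 95% intervals of these shares are no wider than that of Igha in control replicate 2, 57.0% to 58.0%, and cover counting error only.

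**Figure D3:**
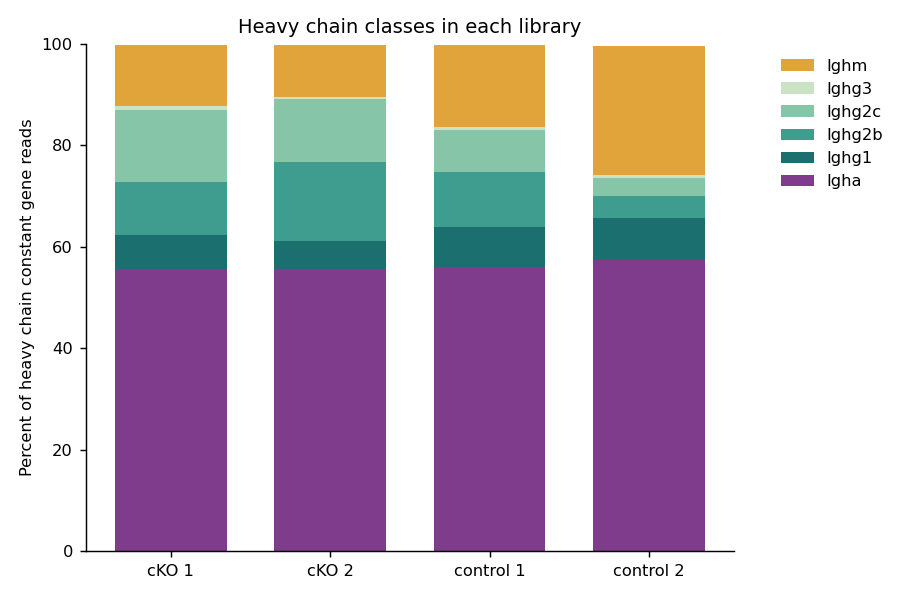
Percent of heavy chain constant gene reads from each class in each library, as stacked bars from 0 to 100%. Ighd and Ighe are not drawn because their shares are at most 0.402% in any library. Igha stands at 55.7% to 57.5% in all 4 bars, while Ighm is largest in control replicate 2 (25.4%) and the Ighg2c share is larger in both cKO bars.

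Of 10 other immunoglobulin constant genes listed, 9 were measured and tested, and 0 passed limma, edgeR or DESeq2. All 9 had a log2 fold change above 0 (50.8% of all genes did), and the median was 0.77. At an unadjusted p under 0.05, 2 were higher, against 3.49% of all genes. With a library left out the median lay between 0.37 (cKO replicate 2) and 1.24 (cKO replicate 1), and it was 0.45 without control replicate 2. Ighg2c had 12557 and 12520.1 normalized counts in the cKO libraries and 5594 and 1081 in the control libraries, giving 2.35 (SE 0.64) on the log2 scale and 1.16 without control replicate 2. Ighg2b had 9237 and 15837 normalized counts in the cKO libraries and 7449.8 and 1287 in the control libraries (log2 fold change 1.97, SE 0.71, and 0.70 without control replicate 2). Ighm overlapped between the groups, with 10642 and 10363 normalized counts in the cKO libraries and 11218 and 7611 in the control libraries (log2 fold change 0.18, SE 0.23). Ighe, the IgE gene, had 8 and 28 reads in the cKO libraries and 10 and 0 reads in the control libraries. Iglc1 and Iglc2, constant genes of the lambda light chain, had log2 fold changes of 0.54 (SE 0.44) and 0.77 (SE 0.36), and Iglc3 had 0.50 (SE 0.51), all with overlap. Iglc3 was at -0.24 without cKO replicate 2, and without control replicate 2 Iglc1 was at -0.0053 and Ighm at -0.095. Ighg3 had 0.98 (SE 0.43), and Ighd had 0.27 (SE 0.41).

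Kappa made up most of the light chain constant reads, with Igkc at 95.9% and 92.9% in the cKO libraries and 92.1% and 86.6% in the control libraries. The ratio of Igkc to Igha normalized counts was 1.01 and 1.02 in the cKO libraries and 0.805 and 0.552 in the control libraries, whereas that of Igha to Jchain was 3.40 and 3.22 in the cKO libraries and 3.65 and 3.18 in the control libraries. Igha and Jchain thus kept a nearly fixed ratio, and Igkc did not. Per kilobase of the shortest annotated transcript, light over heavy chain constant genes gave 1.26 and 1.31 in the cKO libraries and 1.07 and 0.828 in the control libraries. With the longest transcripts, which hold the membrane exons, it gave 2.30 and 2.46 in the cKO libraries and 2.01 and 1.51 in the control libraries. Variable segments, which share reads with one another, were summed by chain, and the kappa and heavy sums were separated as well. The sum of the 3 lambda segments overlapped, at 1728 and 3623 normalized counts in the cKO libraries and 2124 and 648 in the control libraries. The 80 kappa segments summed to 28003 and 25942 normalized counts in the cKO libraries and 15770.3 and 3171 in the control libraries, and the 83 heavy segments to 15797 and 14861 in the cKO libraries and 9197 and 1663 in the control libraries.

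Reads were paired and 150 bases long by the study's design text, and sequence shared between the constant genes was limited. No 150-base stretch of the annotated transcripts of Igkc, Igha, Ighg1 or Jchain occurs in another of the constant genes compared. Of 50-base stretches, 0.393% of Ighg1 are shared, most often with Ighg2b, and 5.49% of Ighg2c, 7.65% of Iglc2 and 10.7% of Iglc3 are shared, while Igkc and Igha share none. The annotation is that of the reference strain, and antibody constant alleles differ between mouse strains.

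Other plasma cell regulators and surface genes were counted from a list of 20. Of these, 17 were measured and tested, 0 passed limma or edgeR, and DESeq2 called Cd28 alone. Of the 17, 13 had a log2 fold change above 0 (50.8% of all genes did) and 4 below, the lowest at -0.43. The median was 0.40 (0.01 over all genes, and between 0.25 and 0.68 with a library left out). At an unadjusted limma p under 0.05, 5 were higher, against 3.49% of all genes. Both cKO libraries lay above both control libraries in 10 (19.2% of all genes) and below both in 1 (3236 of 16598 genes). Irf4, the factor that acts with PRDM1 in plasma cell formation, had 560.3 and 358 normalized counts in the cKO libraries and 229 and 155 in the control libraries (log2 fold change 1.25, SE 0.36). Slamf7, a receptor of plasma and natural killer cells, had 370.1 and 287 in the cKO libraries and 131 and 146 in the control libraries (1.23, SE 0.33). Cd28, a costimulatory receptor of T cells that long-lived plasma cells also carry, had 616 and 448 in the cKO libraries and 191 and 75.0 in the control libraries (2.12, SE 0.47, DESeq2 adjusted p = 0.011, limma adjusted p = 0.64). Eaf2 had a log2 fold change of 1.49 (SE 0.61), Creb3l2, an ER-bound transcription factor, 0.62 (SE 0.32), Cd93 0.52 (SE 0.25) and Cd38 0.74 (SE 0.43).

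Bhlha15, which encodes MIST1, a factor of secretory cells including plasma cells, was the gene nearest to Jchain in pattern. Nearness was the Euclidean distance between log2(normalized count + 1) values centred on each gene's mean over the 4 libraries. It was taken over 11680 genes outside the set with a mean of at least 50, without predicted genes and immunoglobulin genes. Bhlha15 had 233 and 242 normalized counts in the cKO libraries and 153 and 81.4 in the control libraries, at a distance of 0.16. Within the set Igha was as near (0.16), and Derl3 lay at 0.24, Ighg1 at 0.53, Mzb1 at 0.67, Igkc at 0.77, Sdc1 at 0.84, Xbp1 at 1.16 and Prdm1 at 1.35. The next nearest outside genes were Elapor2 (0.21), Prr33 (0.24), Arntl, which encodes the clock factor BMAL1 (0.24), and Itgae, which encodes the integrin CD103 (0.25). As many as 6023 genes outside the set were nearer to Jchain than Prdm1 was, 3530 were nearer than Xbp1, and 0 were nearer than Igha. These distances rest on 4 libraries and carry no test.

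**Figure D4:**
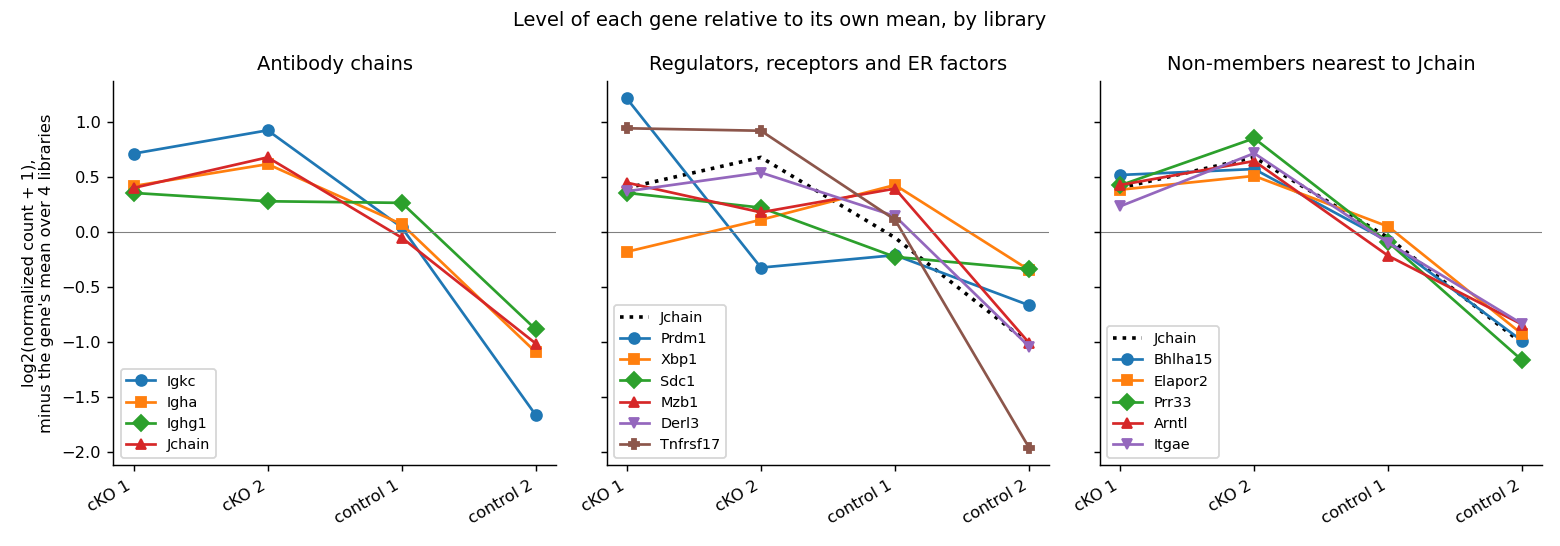
Level of each gene on the log2(normalized count + 1) scale minus its own mean over the 4 libraries, with the antibody chains at left, the other 6 genes in the middle and the 5 nearest outside genes at right. Lines join the points of a gene only to make it traceable, and the dotted line repeats Jchain. Igha, Derl3 and Bhlha15 run along Jchain, and Xbp1 and Prdm1 do not.

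The general ER machinery had medians nearer to that of all genes. Of 23 genes of ER folding and the unfolded protein response, 0 passed limma, edgeR or DESeq2. Their median log2 fold change was 0.23, and it lay between -0.19 (control replicate 2 out) and 0.58 (control replicate 1 out). Atf4, a stress-induced transcription factor, had 6195 and 6627 normalized counts in the cKO libraries and 8405 and 13814 in the control libraries (log2 fold change -0.75, SE 0.26) and alone had an unadjusted p under 0.05. Ern1, the kinase and nuclease that splices Xbp1 RNA, had 0.58 (SE 0.29), the oxidase gene Ero1b 0.75 (SE 0.41) and Dnajb9 0.30 (SE 0.22). Of 24 genes of ER translocation and the signal peptidase, 12 lay above 0 and 12 below, the median was 0.00 (between -0.16 and 0.15 with a library left out), and 0 passed. Srp9, Sec61b, Srp54a and Sec11c had log2 fold changes of -0.62, -0.51, 0.69 and -0.33. Of 16 genes of ER-associated degradation, to which the paralogs Derl1 (-0.14, SE 0.18) and Derl2 (-0.08, SE 0.18) belong, 0 passed and the median was 0.06 (between -0.091 and 0.16 with a library left out). Selenos, Ube2g2, Syvn1 and Ube2j1 had log2 fold changes of -0.35, -0.27, -0.26 and 0.17. In these 3 lists the counts at an unadjusted p under 0.05 were 1 (Atf4, lower), 0 and 0. Over all 16598 genes, 579 were higher and 434 lower at that p.

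**Figure D5:**
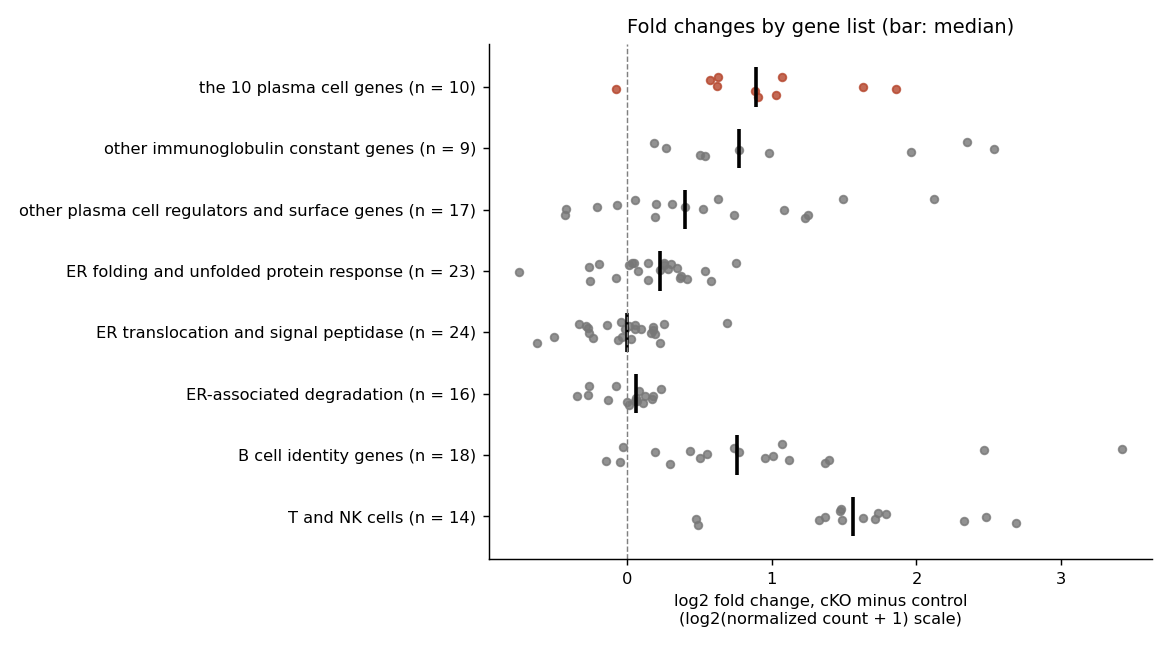
Log2 fold change, cKO minus control, of every tested gene of each list on the log2(normalized count + 1) scale, with a bar at the median and a dashed line at 0. The 10 plasma cell genes have a median of 0.89, the 3 ER lists have medians of 0.23, 0.00 and 0.06, and the T and NK cell list lies at 1.56.

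Markers of other lymphoid cells also lay higher in the cKO libraries. Of 20 B cell identity genes, 18 were measured and 15 lay above 0 (50.8% of all genes did). The median was 0.76, and 0 passed limma, edgeR or DESeq2. At an unadjusted p under 0.05, 3 were higher, against 3.49% of all genes. The median was 0.46 without cKO replicate 1 and 1.29 without cKO replicate 2. They summed to 11725 and 7539 normalized counts in the cKO libraries and 6031 and 6723 in the control libraries, and Igll1 was at 0 in control replicate 2. Blnk, Cd22, Bach2 and Spib had log2 fold changes of 1.40 (SE 0.37), 1.07 (SE 0.33), 1.01 (SE 0.34) and 0.78 (SE 0.33). Pax5, which PRDM1 represses in plasma cells, had 194 and 14.9 normalized counts in the cKO libraries and 7.39 and 11.2 in the control libraries. Its high library was cKO replicate 1, as for Prdm1. In the B cell list control replicate 2 was lowest for 5 of 18 genes, against 10 of 10 in the plasma cell set and 34.1% of all genes. A high share was not particular to the plasma cell set. Control replicate 2 was lowest for 7 of 9 other constant genes and 18 of 23 ER folding genes. The same held for 11 of 16 genes of ER-associated degradation, 12 of 24 of ER translocation and 8 of 17 other regulators and surface genes.

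All 14 T and NK cell markers were measured and lay above 0 (50.8% of all genes did), with a median of 1.56. They summed to 5685 and 4060.03 normalized counts in the cKO libraries and 1359 and 2402 in the control libraries. None was at 0, and 11 had an unadjusted p under 0.05 as higher, against 3.49% of all genes. Of the 14, 0 passed limma or edgeR, and DESeq2 called 3, against 0.645% of all genes in either direction. Klrb1c, Cd3g, Trbc2 and Trac had log2 fold changes of 2.33 (SE 0.33), 2.48 (SE 0.51), 1.71 (SE 0.39) and 1.48 (SE 0.40). Of 9 plasmacytoid dendritic cell genes measured, 7 lay above 0 (50.8% of all genes did). Their median was 0.20 (0.023 without cKO replicate 1 and 0.78 without cKO replicate 2). Their sums were 42151 and 36053 in the cKO libraries and 37263 and 32615 in the control libraries. Siglech, Runx2, Ly6d and Bst2 had log2 fold changes of 0.75, 0.53, -0.59 and -0.32. The 9 mature myeloid markers measured had a median of -0.58, whose sign was not stable: it was 0.46 without control replicate 1, 0.097 without cKO replicate 1 and -1.17 without cKO replicate 2. They had Camp at -1.93, Itgam at -0.58, Ltf at -1.48 and S100a9 at -0.62, and summed to 15435 and 20595 normalized counts in the cKO libraries and 26269.6 and 12274 in the control libraries. The 10 erythroid markers were all highest in control replicate 2, with sums of 37659 and 11663 in the cKO libraries and 29472 and 81434 in the control libraries and a median of -2.13. That median was -0.29 without cKO replicate 2, -3.86 without cKO replicate 1, -1.29 without control replicate 2 and -1.25 by edgeR. Hbb-bt, Hba-a1, Hba-a2 and Hbb-bs had log2 fold changes of -2.16, -2.51, -3.05 and -2.39. The 12 stem and progenitor markers had a median of 0.25 (0.11 without control replicate 1), with Ly6a at 0.76, Flt3 at 0.45, Cd34 at 0.39 and Kit at 0.24. In these 4 lists 0 genes passed limma, edgeR or DESeq2, and at an unadjusted p under 0.05 there were 2 higher plasmacytoid dendritic, 1 lower myeloid, 2 lower erythroid and 2 higher stem and progenitor genes. At that p, 579 of all 16598 genes were higher and 434 lower. The part of other cell types, of sex and of control replicate 2 in the plasma cell values was not tested.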

How the data were processed

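The libraries are from Lin– bone marrow of 4 mice, 2 cKO and 2 control. The deposited table holds a signal for each gene: DESeq2 normalized counts, which the authors obtained by dividing counts by library size factors, per the file headers. The submitters' processing notes list build mm39, SAMtools, DESeq2, featureCounts, STAR 2.7.9a and Trim Galore 0.6.7. Of the annotation and the strand setting the sources used here say nothing. Columns headed WT were assigned to the control samples by group and number. All deposited values (100%, within 0.1 read) were whole multiples of 1 read, so reads were recovered by division, and the smallest sum of a gene over the libraries was 41 reads. Replicates differed beyond counting error (chi-square over its degrees of freedom 36.6 in cKO and 289 in control).

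The test was limma 3.58.1 (R 4.3.3), empirical Bayes with a trend, two-sided, on log2(normalized count + 1), with 2 residual and 5.48 prior degrees of freedom. It used genes with a mean of at least 10. edgeR 4.0.16 and DESeq2 1.42.0 were run on the recovered reads. The fits were run on simulated reads drawn with the same dispersion in all libraries and no library that stands apart. That run does not show how the fits behave with control replicate 2. Intervals for shares are Wilson 95%. Fold changes are cKO minus control. All 10 genes are named, and of the lists up to 8 (constant genes, regulators and surface genes) or 4 by the smallest p, plus the 5 profiles nearest to Jchain. Pax5, Igll1, Derl1, Derl2 and Ighd were picked with their values in view. The genes and lists were chosen with earlier results of these data known. Chromosomes, promoters and transcripts are those of GRCm38 (RefSeq and GENCODE M21), matched by symbol.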

Additional observations from a re-analysis of the deposited data

How the results depend on the processing

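Of 16 alternatives, 6 leave a fold change as it is by construction. The other 10 gave 100 fold changes of the 10 genes, of which 97 kept the direction of the values reported. Leaving out each library in turn gave Mzb1 log2 fold changes between -0.081 (control replicate 2 out) and 1.32, and Xbp1 between -0.46 and 0.31, where Xbp1 was above 0 without cKO replicate 1 (0.07) and without control replicate 1 (0.31). The cause was not tested. None of the 10 (0) passed under any alternative that kept all 4 libraries, and between 0 and 4 did when a library was left out. The number with both cKO libraries above both control libraries, an alternative added after seeing the data, was 7, and between 7 and 10 without a library. Over all genes 12 passed, against 107 by DESeq2 and 2 with X and Y genes left out. Without a library it was between 10 and 393, the highest without control replicate 1. TMM and quantile scaling moved the median of all genes by less than 0.1 on the log2 scale. With the replicate number as a block 8 genes passed, 0 of them among the 10. Same-numbered libraries correlated at -0.074 in their deviations from the group means, and the numbers are not known to pair mice. Tnfrsf17 could not be fitted with a mean of at least 50. Depth limits Tnfrsf17 (4 to 26 reads), Prdm1 and Mzb1.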
